A study of Mus musculus with 8 samples.

Results

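The immediate-early-high liver cells were the CD8 T cells of the liver with the most transcripts of 6 rapid-response genes, Fos, Fosb, Jun, Junb, Atf3 and Klf4. They were chosen by a score, the summed unique molecular identifiers (UMIs, each standing for 1 captured RNA molecule) of these genes as a percentage of all UMIs of the cell. The highest 25% of each liver library gave 1131 of 4521 cells from EomesTG liver and 788 of 3150 cells from WT liver, 1919 of 7671 liver cells and of 18732 cells of the whole series. They were compared with the immediate-early-low cells, the lowest 25% of the same library and equal in number. They are called high cells and low cells below.

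The series profiled sorted CD8 T cells of liver and spleen from EomesTG mice, which carry on a C57BL/6 background a homozygous gain-of-function transgene that makes T cells express Eomes, a T-box transcription factor, and from WT C57BL/6 mice. Each genotype was a pool of 3 mice, sorted as 1 sample per organ and read as an RNA library and a T cell receptor (TCR) library, 8 libraries in all. The promoter of the transgene, the age of the mice and the time from tissue to droplet are not given in the sources used here. With 1 library per group no difference was tested against the spread between mice. The intervals given are 95% intervals that cover counting error only, and genotype cannot be told apart from pool, sort, handling and library.

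Immediate early genes are transcribed within minutes of a stimulus from factors already present in the cell. Fos and Jun family proteins pair through leucine zippers to form the AP-1 transcription factors, which in T cells act downstream of the antigen receptor, of cytokines and of cell stress. Their transcripts are short-lived, and many of the genes induced beside them encode phosphatases, RNA decay factors and other inhibitors that end the response.

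The RNA libraries held 20572245 UMIs in EomesTG liver, 19137483 in WT liver, 28282240 in EomesTG spleen and 28760172 in WT spleen, with medians of 3919, 5463, 4751.5 and 5023 UMIs per cell in that order. Libraries shared 23 to 57 cell barcodes in each pair, and the livers shared 28. High cells were shallower than low cells. Their median was 3311 UMIs and 1398 genes per cell in EomesTG liver, against 4483 UMIs and 1725 genes in low cells, and 4400 UMIs and 1585.5 genes in WT liver, against 6680.5 UMIs and 2046 genes in low cells. The median mitochondrial share was 1.80% in high cells and 1.51% in low cells of EomesTG liver, and 2.47% and 2.27% in the same order in WT liver. All levels below are therefore UMIs of a gene summed over the high or the low cells and scaled to 1000000 UMIs of those cells (CPM), so that shallower cells weigh less in them. The sorted identity held in high and low cells: the 8 CD8 T cell genes (Cd8a, Cd8b1, Cd3d, Cd3e, Cd3g, Cd2, Trac and Lck) summed to 8320 CPM in high cells and 8608 CPM in low cells of EomesTG liver, and to 5897 CPM and 6121 CPM in the same order in WT liver.

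The score covered a wide and unbroken range in both livers. In EomesTG liver the lower quartile, median and upper quartile per cell were 0.145, 0.367 and 0.697% of UMIs, and the highest cell had 3.75%. In WT liver they were 0.239, 0.487 and 0.806%, and the highest cell had 6.07%. Cells without any UMI of the 6 genes numbered 168 in EomesTG liver (3.72%) and 40 in WT liver (1.27%). No gap marked the high cells: the lowest of them had 0.697% in EomesTG liver, where the next cell below also had 0.697%, and 0.806% in WT liver, where the next had 0.805%. At the other end the highest low cell and the next cell above it both had 0.145% in EomesTG liver, and both had 0.239% in WT liver.

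**Figure D1:**
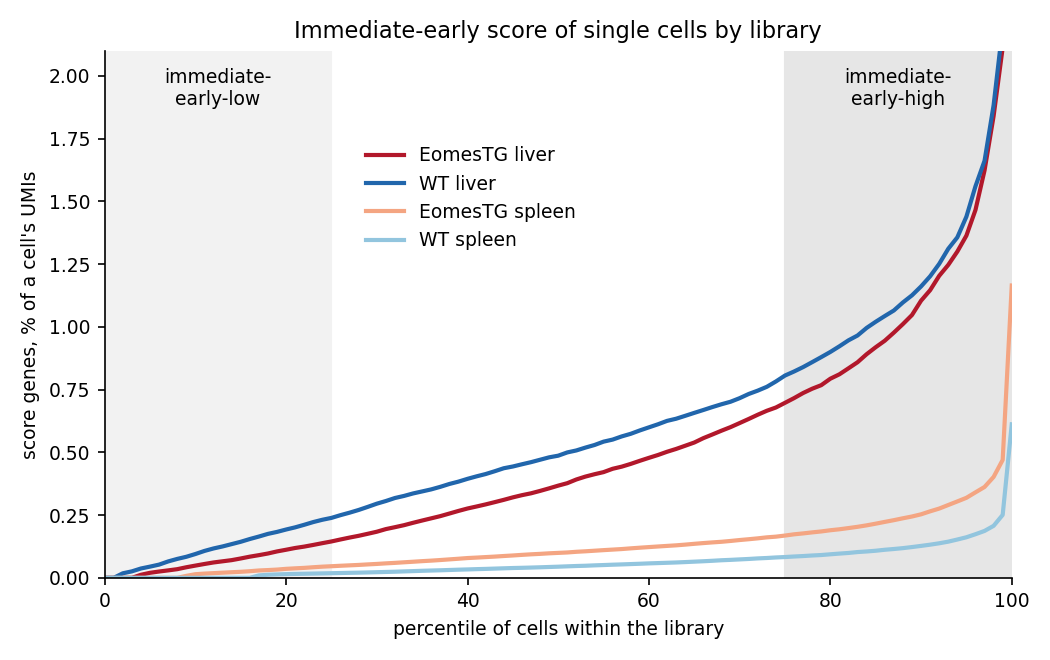
Immediate-early score in % of a cell's UMIs (y axis, cut off above the plotted range) against the percentile of cells within their library (x axis), 1 line per RNA library, with the ranges of low and high cells shaded. Over most of the range both liver lines lie above both spleen lines, with medians of 0.367% in EomesTG liver, 0.487% in WT liver, 0.0994% in EomesTG spleen and 0.0444% in WT spleen.

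Taken over whole libraries, the 6 genes made up 0.418% of UMIs in EomesTG liver (0.415 to 0.420) and 0.484% in WT liver (0.480 to 0.487), a log2 ratio of -0.21 (-0.23 to -0.20). In the spleen the order was the other way, with 0.112% in EomesTG spleen and 0.0522% in WT spleen, a 2.14-fold higher share in EomesTG spleen. The liver share was 3.73-fold that of the spleen in EomesTG mice and 9.27-fold that of the spleen in WT mice, so even the median liver cell of either genotype lay above the upper quartile of the spleen, 0.168% in EomesTG spleen and 0.0829% in WT spleen. Liver and spleen cells came from different preparations, whose part in this difference was not tested.

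The 6 genes did not differ between the livers to the same degree. Fosb, a Fos family subunit of AP-1, had a log2 ratio of EomesTG over WT liver of -1.09, and Klf4, a zinc finger factor that restrains proliferation, had -1.30. Fos itself had -0.54 and Junb -0.29, whereas Jun had 0.21. Atf3, a stress-induced partner and repressor of AP-1, had -0.19 with an interval that just reached equality (-0.37 to 0.00).

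Within high and low cells the score genes are given as a description, because they chose the cells. Jun (ENSMUSG00000052684, chr4:95049034-95052222, minus strand) stood at 3594 CPM in high cells and 161 CPM in low cells of EomesTG liver, and at 3064 CPM and 200 CPM in the same order in WT liver. Fos (ENSMUSG00000021250, chr12:85473890-85477273, plus strand) stood at 2058 CPM in high cells and 99.3 CPM in low cells of EomesTG liver, and at 3006 and 161 CPM in WT liver. Junb (ENSMUSG00000052837, chr8:84974484-84978718, minus strand) gave the most UMIs, at 5123 CPM in high cells and 386 CPM in low cells of EomesTG liver, and at 5192 and 705 CPM in WT liver. Jun and Junb thus held most of the score and set most of the ranking. Fosb (ENSMUSG00000003545, chr7:19302696-19310051, minus strand) reached 91.9 CPM in EomesTG high cells and 222 CPM in WT high cells. Atf3 (ENSMUSG00000026628, chr1:191170296-191218039, minus strand) was at 61.6 and 63.0 CPM in EomesTG and WT high cells, and Klf4 (ENSMUSG00000003032, chr4:55527143-55532466, minus strand) at 14.3 and 43.0 CPM. Positions are those of GENCODE M21 on GRCm38.

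Several immediate early genes and their feedback genes are known to be switched on through cyclic AMP response elements (CRE), which CREB and ATF family factors bind, and promoters of 3 of them are shown because the half-site of this element is shared by most of the score genes. The stretches run from 250 bases before to 50 bases after the annotated start (RefSeq, GRCm38.p6), 5′ to 3′ on the gene's strand, with the CRE half-site TGACG, or CGTCA on the other strand, in capitals. Fos lies at chr12:85473640-85473939 on the plus strand, Dusp1, a phosphatase that switches off MAP kinases, at chr17:26508423-26508722 on the minus strand, and Nr4a1, the orphan nuclear receptor Nur77, at chr15:101266596-101266895 on the plus strand.
Fos: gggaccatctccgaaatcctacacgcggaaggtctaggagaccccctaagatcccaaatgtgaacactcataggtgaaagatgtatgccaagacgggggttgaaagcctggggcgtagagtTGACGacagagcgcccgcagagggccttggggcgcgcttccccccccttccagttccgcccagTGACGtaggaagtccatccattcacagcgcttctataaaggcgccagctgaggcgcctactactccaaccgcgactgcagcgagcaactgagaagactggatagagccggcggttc
Dusp1: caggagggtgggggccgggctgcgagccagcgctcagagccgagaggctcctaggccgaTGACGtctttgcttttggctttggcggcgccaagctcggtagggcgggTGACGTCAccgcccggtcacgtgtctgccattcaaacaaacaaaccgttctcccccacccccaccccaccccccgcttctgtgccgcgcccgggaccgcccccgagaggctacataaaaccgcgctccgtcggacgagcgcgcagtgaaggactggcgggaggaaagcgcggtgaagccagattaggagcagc
Nr4a1: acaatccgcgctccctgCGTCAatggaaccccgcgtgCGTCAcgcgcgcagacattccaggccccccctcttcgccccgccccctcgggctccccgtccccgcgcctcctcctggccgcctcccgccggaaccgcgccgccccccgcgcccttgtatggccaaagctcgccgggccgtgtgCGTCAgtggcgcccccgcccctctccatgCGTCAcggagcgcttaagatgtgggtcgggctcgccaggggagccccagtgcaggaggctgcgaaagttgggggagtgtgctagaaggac
The Fos promoter held 2 half-sites, starting at positions -129 and -66 from the start site, and the TATA box letters TATAAA at -33. The Dusp1 promoter held a full CRE, TGACGTCA, at -143 and a further half-site at -191. The Nr4a1 promoter held 4 half-sites, at -233, -213, -69 and -40. The half-site was in the promoters of 5 of the 6 score genes (all but Jun), against 20.8% of all 32851 promoters of the table. It was also in a promoter of 55.6% of the heat shock genes found in the table (5 of 9), 45.5% of the naive genes (5 of 11) and 38.5% of the effector genes (5 of 13). For feedback and RNA decay genes the share was 47.6% (10 of 21). For immediate early transcription factors it was 70% (7 of 10), and for other AP-1 and bZIP genes 66.7% (6 of 9). These list shares count genes, which can have several promoters, so they are not in the same unit as the share of all promoters. Full CRE letters were in 0 of the 6 and in 1.79% of all promoters, and AP-1 letters, TGANTCA, in 0 of the 6 and in 7.81% of all. The CArG box, the site of serum response factor, was in 0 of the 6 and in 1.63% of all promoters. Sites further than 250 bases before the start were not searched, so a count of 0 does not mean that a gene lacks the site. Both strands were searched, a full CRE contains overlapping half-sites on both strands, and a match is a description of letters, not of binding.

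Outside the score, most tested members of the lists of further immediate early genes and of feedback and RNA decay genes stood higher in high cells of both livers, as did most residency genes and at least 6 of 12 heat shock genes. These lists hold a small part of all genes called. A gene was called when it had at least 50 UMIs over high and low cells and differed by at least 1.5-fold with the interval on that side of equality. Of 9052 genes of EomesTG liver, 705 were higher in high cells (7.79%) and 1027 lower (11.3%). Of 8911 genes of WT liver, 714 were higher (8.01%) and 1310 lower (14.7%). The median log2 ratio of all genes was -0.06 in EomesTG liver and -0.07 in WT liver. Among 8589 genes measured well enough in both livers, 296 were higher in both, 45.2% of the 655 called in EomesTG liver and 45.5% of the 650 called in WT liver. Genes lower in both numbered 695, 73.9% of the 941 called in EomesTG liver and 56.9% of the 1221 called in WT liver.

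**Figure D2:**
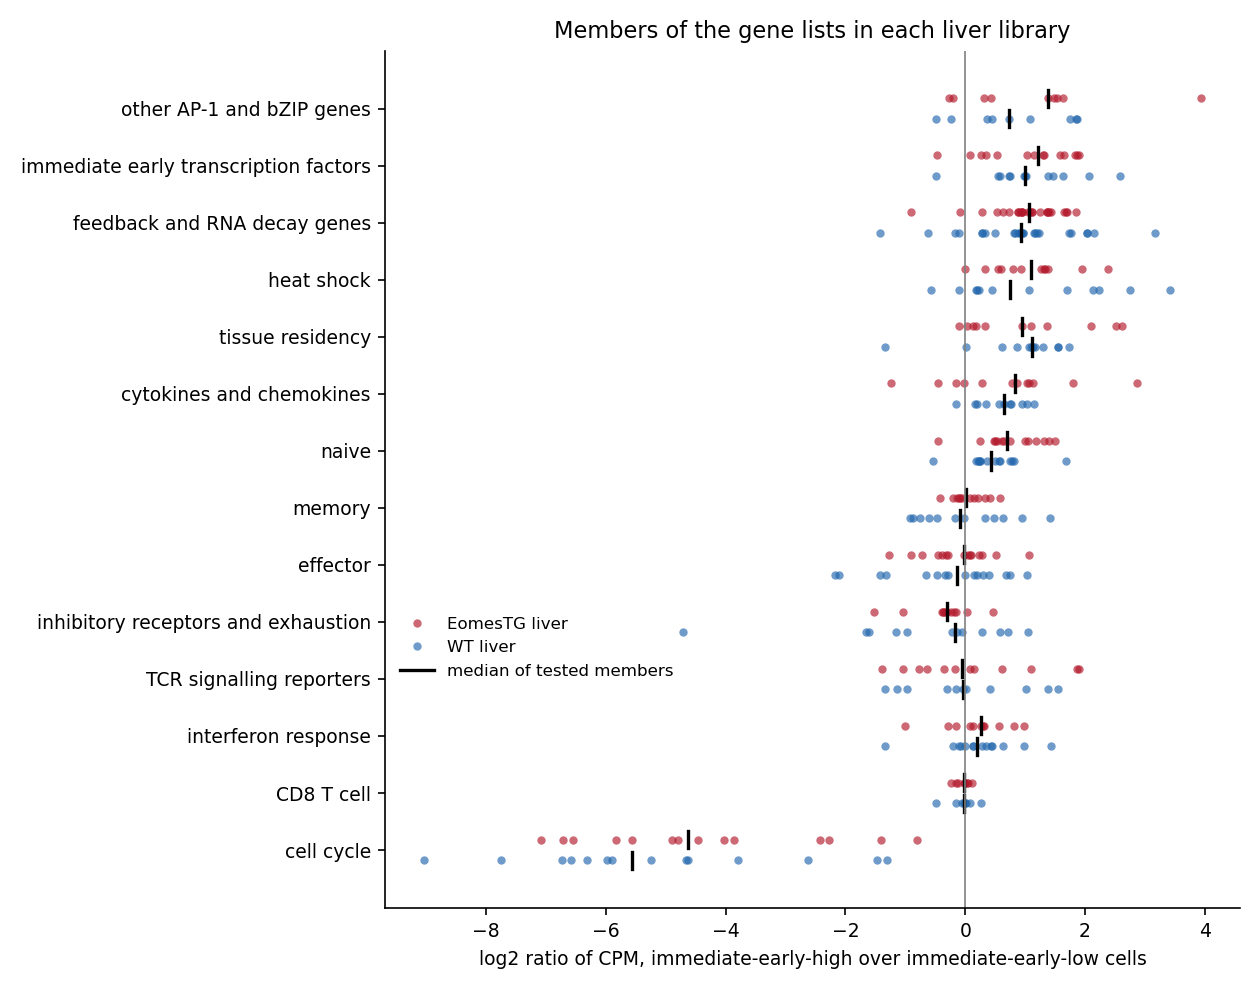
Log2 ratio of CPM of high cells over low cells (x axis) for each tested member of the gene lists (rows), red for EomesTG liver and blue for WT liver, with the median of the tested members as a black bar. Members of the 4 uppermost lists lie mostly to the right of 0, CD8 T cell genes lie close to 0, and all 14 cell cycle genes lie to the left of 0 in both livers.

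Of the other AP-1 and bZIP genes, 5 of 9 tested were higher and 0 lower in high cells of each liver, with a median log2 ratio of 1.39 in EomesTG liver and 0.74 in WT liver. Jund, the broadly expressed Jun paralog, stood at 2694 CPM in high cells and 1031 CPM in low cells of EomesTG liver, and at 2520 and 752 CPM in WT liver, log2 ratios of 1.39 and 1.74. Maff, a small Maf protein that dimerises with other bZIP factors, was at 17.1 CPM in high cells and 1.11 CPM in low cells of EomesTG liver, a log2 ratio of 3.94 (2.82 to 5.31), and at 17.2 and 4.71 CPM in WT liver (1.87). Cebpb and Fosl2, the Fos paralog Fra-2, were also higher in both livers, by log2 ratios of 1.64 and 1.53 in EomesTG liver and 1.85 and 1.08 in WT liver. Batf, the AP-1 partner of effector T cells, was not called in either liver, with log2 ratios of -0.26 in EomesTG liver and -0.49 in WT liver.

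The immediate early transcription factors moved in the same direction, with 9 of 14 tested higher and 0 lower in EomesTG liver and 10 of 13 higher and 0 lower in WT liver. Nr4a1, an early target of TCR signalling, stood at 218 CPM in high cells and 58.2 CPM in low cells of EomesTG liver, and at 310.0 and 119 CPM in WT liver, log2 ratios of 1.90 (1.73 to 2.08) and 1.38 (1.24 to 1.51). Egr1, a zinc finger factor of growth factor and TCR responses, was at 221 and 70.7 CPM in EomesTG liver and at 246 and 41.2 CPM in WT liver, ratios of 1.64 and 2.58. Klf2, which keeps T cells quiescent and drives their recirculation, was at 1861 CPM in high cells and 521 CPM in low cells of EomesTG liver, and at 3658 and 1179.9 CPM in WT liver. Klf6 had log2 ratios of 1.58 in EomesTG liver and 2.07 in WT liver. Klf10 was not called in either liver, with -0.47 in EomesTG liver and -0.48 in WT liver.

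Genes of the feedback and RNA decay list were higher as a group. The list is broad and also holds immediate early genes such as Rhob. Of 26 feedback and RNA decay genes tested, 22 were higher and 1 lower in high cells of EomesTG liver, and 18 were higher and 2 lower in WT liver, with medians of 1.06 and 0.93. Rhob (ENSMUSG00000054364, chr12:8497661-8500009, minus strand), a small GTPase with an immediate early transcript, stood at 508 CPM in high cells and 140 CPM in low cells of EomesTG liver, a log2 ratio of 1.86 (1.74 to 1.97). In WT liver it stood at 480.4 CPM in high cells and 53.3 CPM in low cells and the log2 ratio was 3.17. Dusp1 was at 1007 and 384 CPM in high and low cells of EomesTG liver and at 1033 and 232 CPM in WT liver, ratios of 1.39 and 2.16. Zfp36, which binds AU-rich elements and speeds the decay of cytokine RNA, had ratios of 1.36 in EomesTG liver and 2.03 in WT liver. Btg2, an antiproliferative gene of RNA deadenylation, had 1.68 and 2.03, and Ppp1r15a, the stress-induced phosphatase subunit GADD34, had 1.65 and 1.77. The exceptions were Ier3, lower in both livers (-0.90 and -0.62), and Dusp4, lower in WT liver (-1.43) and not called in EomesTG liver (-0.09).

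Heat shock genes were higher as well, with 9 of 12 higher and 0 lower in high cells of EomesTG liver and 6 of 12 higher and 0 lower in WT liver. Summed over the list they came to 18333 CPM in high cells and 9738 CPM in low cells of EomesTG liver, a log2 ratio of 0.91, and to 9392 and 6547 CPM in WT liver, a ratio of 0.52. Dnajb1 (ENSMUSG00000005483, chr8:83608193-83612653, plus strand), the inducible Hsp40 cochaperone, stood at 3189 CPM in high cells and 611 CPM in low cells of EomesTG liver, a log2 ratio of 2.38 (2.33 to 2.44), and at 1400.0 and 207 CPM in WT liver, a ratio of 2.76 (2.67 to 2.84). Hspb1, the small chaperone Hsp25, was at 133 and 51.4 CPM in EomesTG liver and at 52.0 and 4.86 CPM in WT liver. The inducible Hsp70 genes Hspa1a and Hspa1b had ratios of 1.32 and 1.33 in EomesTG liver and of 2.24 and 2.14 in WT liver, but they are near-identical copies and reads may be split between them. Hspa8, the constitutive Hsc70, was not called, with 0.55 in EomesTG liver and 0.19 in WT liver, and neither was the mitochondrial chaperonin Hspd1, with 0.00 and -0.57.

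**Figure D3:**
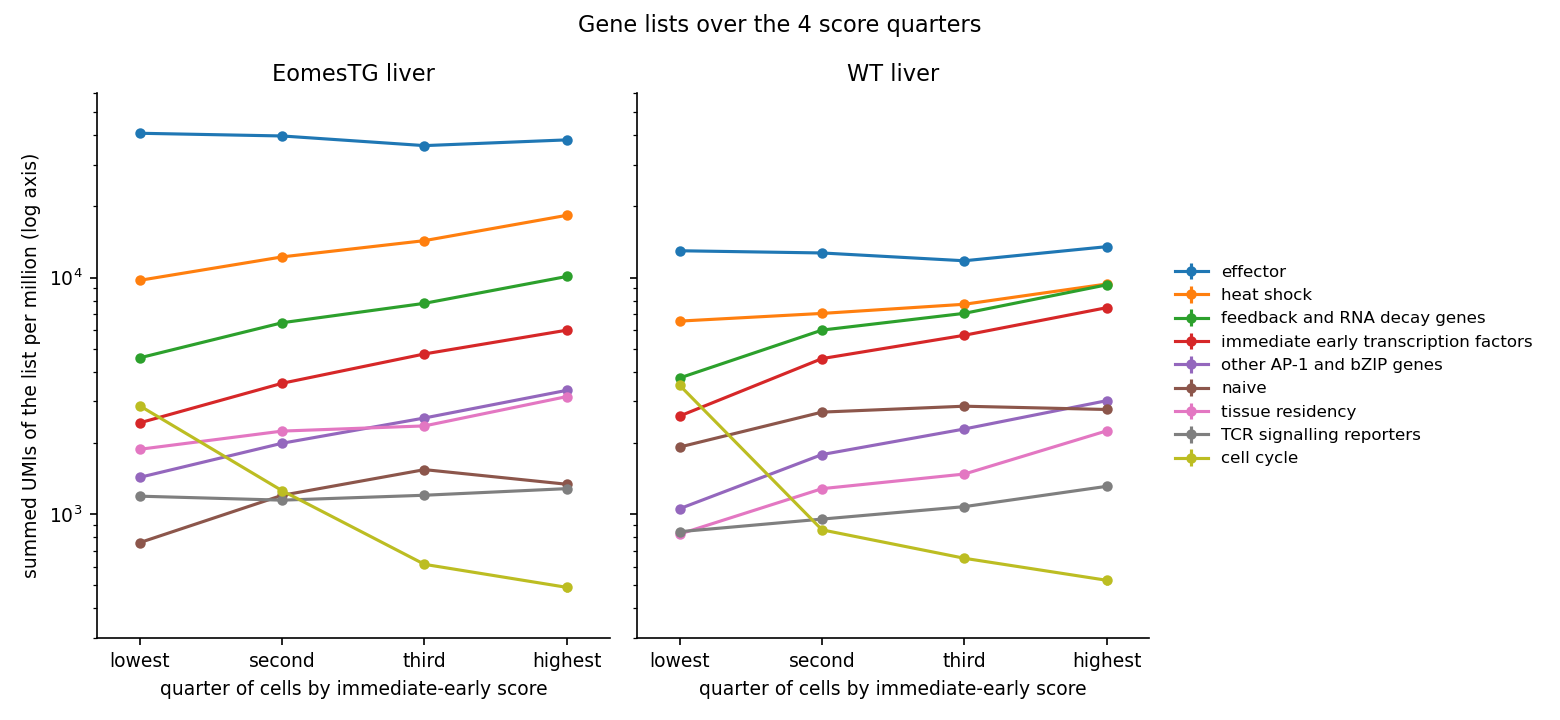
Summed CPM of 9 gene lists (y axis, log scale, 1 colour per list) in the 4 quartile groups of the immediate-early score, lowest to highest along the x axis, in EomesTG liver (left) and WT liver (right), with exact Poisson intervals. Heat shock genes sum to 9738, 12232, 14328 and 18333 CPM from the lowest to the highest group of EomesTG liver, and cell cycle genes to 2868, 1256, 613 and 490 CPM.

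Between the lowest and the highest of the 4 quartile groups of the score, heat shock and feedback genes stepped up from group to group. Heat shock genes summed to 6547, 7055, 7713 and 9392 CPM from the lowest to the highest group of WT liver, and feedback genes to 3765, 5998, 7061 and 9319 CPM. In EomesTG liver feedback genes summed to 4580, 6444, 7784 and 10109 CPM over the same groups. Naive genes did not follow this pattern: they summed to 758, 1201, 1542 and 1338 CPM in EomesTG liver and to 1922, 2700, 2859 and 2769 CPM in WT liver, so the group below the high cells was the highest in both. The score was also built from Fos, Fosb, Atf3 and Klf4 alone, without Jun and Junb. The counts of the gene groups below then changed, except for heat shock genes of WT liver. In EomesTG liver this score set 1131 high cells against 1766 low cells, so the groups were no longer equal in number. In WT liver they had 788 and 797 cells. The part of the larger low group in the EomesTG values was not tested. Of all genes, 4.03% were higher and 6.68% lower in EomesTG liver, and 4.34% and 14.4% in WT liver. Heat shock genes were 3 higher and 1 lower of 12 in EomesTG liver and 6 higher and 0 lower of 12 in WT liver. Feedback genes were then 9 higher and 3 lower of 26 in EomesTG liver and 8 higher and 6 lower in WT liver, and immediate early transcription factors 5 higher and 1 lower of 14 and 4 higher and 2 lower of 13.

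Genes of proliferation led the other side of the comparison. All 14 cell cycle genes were lower in high cells of both livers, with medians of -4.63 in EomesTG liver and -5.57 in WT liver. Cells with UMIs of at least 4 of the 14 genes numbered 9 of 1131 high cells (0.796%) and 219 of 1131 low cells (19.4%) in EomesTG liver, and 5 of 788 (0.635%) and 252 of 788 (32.0%) in WT liver. With every cell thinned to 2000 UMIs, which left out 231 high and 115 low cells of EomesTG liver and 87 high and 32 low cells of WT liver, the shares were 0.333% of high and 15.4% of low cells in EomesTG liver and 0.428% and 22.8% in WT liver. Ube2c, an E2 enzyme of the anaphase-promoting complex, stood at 1.53 CPM in high cells and 287 CPM in low cells of EomesTG liver, and at 1.13 and 301 CPM in WT liver. Birc5, the survivin of the spindle midzone, was at 3.56 and 202 CPM in EomesTG liver and at 1.13 and 245 CPM in WT liver. Ccnb2, Ccna2, Pclaf and Cenpf, genes of mitotic entry, replication and the kinetochore, were likewise among the 10 lowest of both livers. Hmmr had 0 UMIs in high cells and 298 UMIs in low cells of WT liver, at least 53.4-fold lower at a floor of 3 counts over the high cells, and Pimreg had 0 and 145 UMIs in EomesTG liver, at least 30.2-fold lower.

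Over the whole library 359 cells of EomesTG liver were cycling by this count, 219 of them low (61.0%) and 9 high (2.51%), and 327 cells of WT liver, 252 low (77.1%) and 5 high (1.53%). Their median was 9163 UMIs in EomesTG liver, against 3762.5 in the other cells, and 11884 in WT liver, against 5173. The comparison was repeated without them, an alternative chosen after seeing the data. Calls then fell to 433 higher (5.1%) and 265 lower (3.12%) of 8498 genes in EomesTG liver, and to 316 higher (3.94%) and 273 lower (3.41%) of 8012 in WT liver. The immediate early and chaperone groups kept their direction: heat shock genes were 10 higher and 0 lower of 12 in EomesTG liver and 7 and 0 of 12 in WT liver, and immediate early transcription factors 9 and 0 of 14 and 8 and 0 of 13. Dnajb1 then had a log2 ratio of 1.94 in EomesTG liver and 2.08 in WT liver, and Rhob 1.43 and 2.14. With high and low cells chosen within each of 5 depth bins of a library, so that depth was matched, heat shock genes were 8 higher and 0 lower of 12 in EomesTG liver, where 6.2% of all genes were higher and 13.3% lower, and 6 and 0 of 12 in WT liver, where 5.19% were higher and 15.2% lower.

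Naive genes, those of T cells that have not met antigen and recirculate through lymphoid organs, had a higher summed level in high cells of both livers, with most members called in EomesTG liver and a minority in WT liver. Effector genes, those of killing and inflammatory migration, were called in both directions. Of 14 naive genes tested, 9 were higher and 0 lower in EomesTG liver and 4 higher and 0 lower in WT liver, with medians of 0.70 and 0.43. Their sum was 1338 CPM in high cells and 758 CPM in low cells of EomesTG liver, a log2 ratio of 0.82 (0.76 to 0.88), and 2769 and 1922 CPM in WT liver, a ratio of 0.53 (0.49 to 0.56). Without cycling cells 5 were higher and 2 lower of 14 in EomesTG liver and 1 higher and 0 lower of 14 in WT liver, with ratios of the sum of 0.37 and 0.16. With each clone counted once, naive genes were 4 higher and 1 lower of 14 in EomesTG liver, where 6.98% of all genes were higher and 8.57% lower, and 2 higher and 1 lower of 14 in WT liver, where 7.28% were higher and 13% lower.

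Il7r (ENSMUSG00000003882, chr15:9505788-9530176, minus strand), the interleukin-7 receptor that sustains naive and memory cells, led the naive list. It stood at 171 CPM in high cells and 60.0 CPM in low cells of EomesTG liver, a log2 ratio of 1.51 (1.32 to 1.69), and at 376 and 117 CPM in WT liver, a ratio of 1.69 (1.56 to 1.82). Without cycling cells its ratio was 0.95 in EomesTG liver and 0.78 in WT liver. Bach2, a repressor of effector differentiation, was higher in EomesTG liver (28.5 CPM in high cells, 10.8 CPM in low cells) and not called in WT liver (31.4 and 27.2 CPM). Ccr7, the lymph node homing receptor, was also called in EomesTG liver (1.31) and not in WT liver (0.37). Satb1, a chromatin organiser of naive T cells, was higher in both, by 1.18 and 0.79. Tcf7, the TCF1 factor of naive and stem-like cells, was called at 122 CPM in high cells and 61.1 CPM in low cells of EomesTG liver and was not called at 252 and 215 CPM in WT liver.

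Among effector genes, 1 was higher and 3 lower of 15 tested in EomesTG liver, and 3 were higher and 5 lower of 16 in WT liver. Their sum was 38203 CPM in high cells and 40744 CPM in low cells of EomesTG liver (a log2 ratio of -0.093), and 13510 and 12984 CPM in WT liver (0.057). The direction of this sum was not stable, and turned negative in WT liver at matched depth (-0.67) and without cycling cells (-0.36). Abundant members such as the chemokine gene Ccl5 weigh most in the sum, so it does not stand for the list as a whole. Ifng, the interferon of type 1 immunity, was higher in high cells of both livers, at 609.5 CPM in high cells and 291 CPM in low cells of EomesTG liver and at 199 and 97.1 CPM in WT liver. Gzmk, a granzyme of memory-like effector cells, was lower in both, at 426 and 704 CPM in EomesTG liver and at 46.1 and 199 CPM in WT liver. Cx3cr1, a receptor of circulating effector cells, was lower in both (-1.27 and -1.33). Klrg1, a marker of terminal effectors, was lower in WT liver, at 13.3 CPM in high cells and 60.0 CPM in low cells, and close to equality in EomesTG liver, at 6.87 and 6.68 CPM.

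Counted per cell, low cells held fewer naive-leaning cells than high cells or than the whole library. Each cell of at least 2000 UMIs was thinned to 2000 UMIs and called naive-leaning when UMIs were seen for more naive than effector genes, and effector-leaning in the reverse case. Naive-leaning cells made up 20.1% of high cells (17.5 to 22.9, 181 of 900) and 11.7% of low cells (9.80 to 13.9, 119 of 1016) in EomesTG liver, and 49.1% (45.3 to 52.8, 344 of 701) and 42.1% (38.5 to 45.7, 318 of 756) in WT liver. Over the whole library they made up 19.2% in EomesTG liver (18.0 to 20.5) and 49.3% in WT liver (47.5 to 51.1), within the interval of the high cells in both. Effector-leaning cells made up 76.2% of high and 87.0% of low cells in EomesTG liver, and 42.1% and 49.7% in WT liver. At their own depth, without thinning, naive-leaning cells made up 19.3% of high and 13.0% of low cells in EomesTG liver, and 56.1% and 51.5% in WT liver. Free RNA in droplets can add UMIs to such calls, and its part was not tested. The classes are ranges, not types, and 71 high and 44 low cells of EomesTG liver and 114 high and 112 low cells of WT liver lay 1 gene from the cut. Most high cells of EomesTG liver were therefore effector-leaning. The share of the 6 genes was larger in naive-leaning cells of both livers. They made up 0.456% of UMIs in naive-leaning and 0.387% in effector-leaning cells of EomesTG liver, and 0.507% and 0.444% in WT liver. The median scores per cell were 0.435 and 0.325% in EomesTG liver and 0.499 and 0.444% in WT liver, in the same order.

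The immediate early pattern was present within each class. In effector-leaning cells of EomesTG liver, 686 high against 884 low, immediate early transcription factors were 9 higher and 0 lower of 14 and heat shock genes 9 and 0 of 12, where 7.9% of all genes were higher and 10.6% lower. In naive-leaning cells of EomesTG liver, 181 against 119, the counts were 10 and 0 of 11 and 8 and 0 of 12, where 7.44% of genes were higher and 7.39% lower. In effector-leaning cells of WT liver, 295 against 376, they were 12 and 0 of 13 and 6 and 0 of 12, where 10.6% were higher and 14.3% lower. In naive-leaning cells of WT liver, 344 against 318, they were 10 and 0 of 12 and 6 and 1 of 12, where 5.31% were higher and 15% lower. Dnajb1 had log2 ratios of 2.55 and 3.06 in effector-leaning cells of EomesTG and WT liver, and of 2.20 and 2.45 in naive-leaning cells. Il7r, a gene that entered the class call, still differed in effector-leaning cells, at 47.7 CPM in high cells and 6.78 CPM in low cells of EomesTG liver and at 162 and 53.2 CPM in WT liver.

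**Figure D4:**
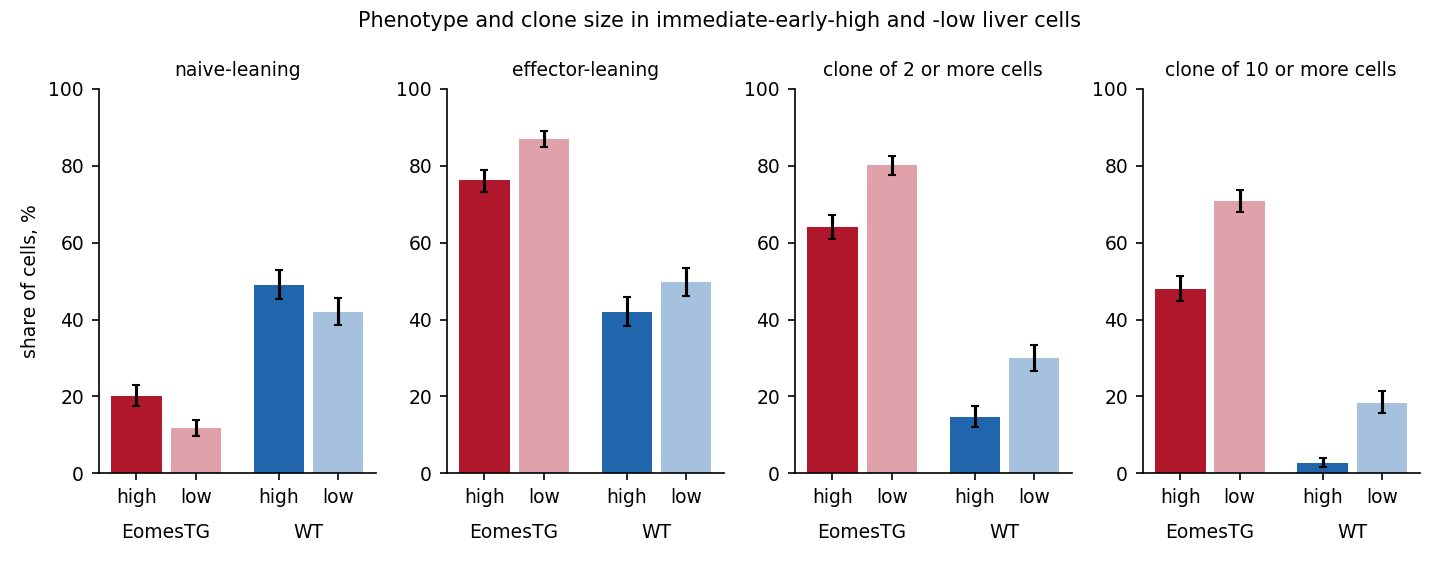
Share of cells in % (y axis, exact binomial intervals) that were naive-leaning, effector-leaning, in clones of 2 or more cells and in clones of 10 or more cells, for high and low cells of EomesTG liver (red) and WT liver (blue). The share in clones of 10 or more cells is 48.1% of high and 70.8% of low cells in EomesTG liver and 2.60% and 18.4% in WT liver.

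A smaller share of high cells than of low cells came from expanded clones. A clone was a set of cells with the same productive TRA and TRB CDR3 sequences, the CDR3 being the part of the receptor chain that touches the antigen, and it counted as expanded at 2 or more cells. A productive TRB chain was found for 79.8% of high and 89.7% of low cells of EomesTG liver, and for 87.9% and 90.4% in WT liver. Expanded clones held 64.1% of high cells (60.9 to 67.3, 579 of 903) and 80.3% of low cells (77.7 to 82.7, 814 of 1014) in EomesTG liver. In WT liver they held 14.6% of high cells (12.0 to 17.4, 101 of 693) and 29.9% of low cells (26.6 to 33.4, 213 of 712). Cells of a clone are not independent, and a few large clones weighed heavily: without the largest clone of each liver the shares were 62.0% of high and 74.3% of low cells in EomesTG liver, and 14.5% and 19.6% in WT liver. With each clone counted once among high and once among low cells, the shares are of clones and not of cells. Their difference, high minus low, was -4.86 percentage points in EomesTG liver and -2.05 in WT liver.

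The receptors of 4 large clones, picked after their values were seen to show how clones differed in their split, are given by their TRB CDR3 nucleotide sequence, with the first and the last codon in capitals. All lie in the Trb locus on chromosome 6, and each is a rearranged sequence read in the TCR library.
EomesTG clone 1, TRBV3 and TRBJ1-5: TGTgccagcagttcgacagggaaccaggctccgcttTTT
EomesTG clone 2, TRBV15 and TRBJ2-7: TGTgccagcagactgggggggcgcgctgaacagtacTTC
EomesTG clone 8, TRBV23 and TRBJ2-2: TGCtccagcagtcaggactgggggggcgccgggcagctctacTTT
WT clone 1, TRBV29 and TRBJ1-6: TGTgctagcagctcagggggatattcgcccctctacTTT
EomesTG clone 1 had 492 cells, of which 50 were high (10.2%) and 236 low (48.0%), and 69 were cycling. EomesTG clone 2, nearly as large at 430 cells, had 99 high (23.0%) and 127 low cells (29.5%), against the 25% that the rule gives the library as a whole. A further 85 cells carried the same TRB sequence with no TRA and had 25 high and 22 low cells, and these were counted as a clone of their own. So were 55 cells that carried this TRB sequence beside another TRB and a different TRA, with 6 high and 25 low cells. EomesTG clone 8 had 55 cells, 1 high and 31 low, and 24 were cycling. WT clone 1 had 114 cells, 1 high (0.877%) and 91 low (79.8%), and 52 were cycling. A further 15 cells carried the same TRB sequence with no TRA and had 3 high and 8 low cells, with the 6 genes at 0.390% of their UMIs. With clones defined by TRB alone the gap in expanded clones was -14.1 percentage points in EomesTG liver and -15.8 in WT liver. The share of the 6 genes in the UMIs of the 4 picked clones was 0.228% in EomesTG clone 1, 0.380% in EomesTG clone 2, 0.147% in EomesTG clone 8 and 0.115% in WT clone 1. It was 0.502% in the 85 cells with the TRB sequence of EomesTG clone 2 and no TRA. Cells with the same TRB sequence thus also differed in this share.

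Genes of tissue-resident cells, which stay in an organ without returning to the blood, were higher in high cells of both livers. Of 11 tested in EomesTG liver 6 were higher and 0 lower, and of 12 in WT liver 10 were higher and 1 lower, with medians of 0.95 and 1.11. Itga1 (ENSMUSG00000042284, chr13:114953096-115101964, minus strand), the collagen-binding integrin CD49a of liver-resident lymphocytes, stood at 45.1 CPM in high cells and 7.32 CPM in low cells of EomesTG liver, a log2 ratio of 2.62 (2.15 to 3.12), and at 45.8 and 15.7 CPM in WT liver, a ratio of 1.55 (1.18 to 1.92). Zfp683, the residency factor Hobit, was at 17.1 and 3.98 CPM in EomesTG liver and at 26.6 and 10.8 CPM in WT liver. P2rx7, the receptor for extracellular ATP, had ratios of 2.52 and 1.06. Cd69, which holds cells in tissue and is itself an early activation gene, had 1.10 and 1.55. Cxcr6, the receptor that keeps T cells in the liver sinusoids, was higher in WT liver (0.87) and not called in EomesTG liver (0.02). Itgae, the integrin CD103, was lower in WT liver (-1.34). At matched depth 6 were higher and 1 lower of 11 in EomesTG liver and 5 higher and 1 lower of 12 in WT liver, where Itga1 had 0.55 and was no longer called. Rgs1, Rgs2 and Cd69 are in this list and are also genes of early activation.

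The genes leading the comparison by the bound of their interval were of mixed kinds and were named by rank, not from a list. Tyrobp and Fcer1g, signalling adaptors of activating NK receptors, stood at 144 and 177 CPM in high cells and at 24.2 and 37.2 CPM in low cells of EomesTG liver. In WT liver they stood at 252 and 357 CPM in high cells and at 90.7 and 129 CPM in low cells. Klrb1c, the receptor NK1.1, had log2 ratios of 2.71 in EomesTG liver and 2.07 in WT liver. Il12rb2, a chain of the interleukin-12 receptor, had 3.05 and 1.25, Gcnt2, a glycosyltransferase, had 3.06 and 1.93, and Il2, the T cell growth cytokine, had 2.86 and 1.15. Zbtb16, the PLZF factor of innate-like T cells, was higher in WT liver at 12.7 CPM in high cells and 1.37 CPM in low cells, and had too few UMIs in EomesTG liver. Socs2, a cytokine signalling inhibitor, was higher in EomesTG liver (2.55) and had too few UMIs in WT liver.

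The 5 markers fixed for NK and CD4 T cells (Ncr1, Klrb1c, Cd4, Foxp3 and Trdc) summed to 61.1 CPM in high cells and 9.71 CPM in low cells of EomesTG liver, and to 94.1 and 23.4 CPM in WT liver. Klrb1c was the only one tested in EomesTG liver, Ncr1, the NK receptor NKp46, was also higher in WT liver at 17.0 and 2.43 CPM, and Cd4 had 0 UMIs in high cells of both livers. Among cells with a TRB chain and no UMI of the hepatocyte, macrophage, endothelial, B cell, neutrophil or erythroid genes, Tyrobp had a ratio of 2.19 in EomesTG liver and 2.06 in WT liver, and Klrb1c 2.38 and 2.18. That choice of cells did not use the NK markers, and the part of NK cells in these ratios was not tested. In effector-leaning cells Tyrobp was at 180 CPM in high cells and 25.2 CPM in low cells of EomesTG liver and at 662 and 122 CPM in WT liver. In naive-leaning cells of WT liver it was lower in high cells, at 10.3 CPM against 19.0 CPM.

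Low cells of WT liver held the most RNA of other cell types. The 10 macrophage and Kupffer cell genes summed to 9.33 CPM in high cells and 103 CPM in low cells of WT liver, with 6 of 6 tested lower, and to 6.87 and 10.3 CPM in EomesTG liver. The 7 B cell genes summed to 198 and 538 CPM in WT liver, with 3 of 5 tested lower, and to 119 and 117 CPM in EomesTG liver. Jchain, a plasma cell gene, had 0 UMIs in high cells and 1433 UMIs in low cells of WT liver, at least 257-fold lower. MHC class II and dendritic cell genes summed to 41.5 CPM in high cells and 191 CPM in low cells of EomesTG liver and to 30.8 and 432 CPM in WT liver, with 4 of 5 tested lower in each. The 8 endothelial genes went the other way in WT liver, at 66.4 CPM in high cells and 35.9 CPM in low cells, with 2 of 3 tested higher. Hepatocyte genes summed to 1.78 and 1.75 CPM in high and low cells of EomesTG liver and to 14.1 and 30.2 CPM in WT liver, and the 5 erythroid genes had 0 UMIs in all 4. Barcodes were also counted by their summed UMIs of the macrophage, B cell, MHC class II and dendritic, and hepatocyte genes. Endothelial and NK genes did not enter this sum. Barcodes with at least 10 such UMIs numbered 1 high and 8 low in EomesTG liver and 3 high and 29 low in WT liver. Without them 700 genes were higher and 1004 lower in EomesTG liver, and 678 and 1251 in WT liver.

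Genes of recent TCR signalling were called in both directions. Of 12 tested in EomesTG liver 4 were higher and 4 lower, and of 11 in WT liver 3 were higher and 3 lower, with medians of -0.05 and -0.04. Their sum was 1282 CPM in high cells and 1191 CPM in low cells of EomesTG liver, a log2 ratio of 0.11 (0.05 to 0.16), and 1311 and 843 CPM in WT liver, a ratio of 0.64 (0.58 to 0.69). Within the classes above the ratio of the sum was 0.67 in naive-leaning and 0.12 in effector-leaning cells of EomesTG liver, and 0.60 and 0.64 in WT liver. The sum of the WT list thus differed more than its median member. Nr4a1, Nr4a3 and Cd69 were among the higher ones in both livers. Tnfrsf9, the costimulatory receptor 4-1BB, was lower in both, at 139 CPM in high cells and 286 CPM in low cells of EomesTG liver and at 19.2 and 37.7 CPM in WT liver. Irf8 was lower in both (-0.78 and -1.35), Irf4, which scales with TCR strength, was lower in WT liver (-1.14), and Cd5, whose level tracks tonic TCR signals, was lower in EomesTG liver (-0.64). In WT liver Irf8 and Irf4 were lower in naive-leaning cells (-2.20 and -2.00) and not called in effector-leaning cells (-0.33 and -0.58). The naive-leaning low cells of WT liver also held Jchain at 218 CPM and Cd74 at 390 CPM. The part of other cell types in the Irf8 and Irf4 ratios was not tested. Of the cytokines and chemokines, 7 of 12 tested were higher and 1 lower in EomesTG liver and 6 of 11 higher and 0 lower in WT liver. Ccl3, a chemokine of activated effectors, was the one that was lower, at 502 CPM in high cells and 1184 CPM in low cells of EomesTG liver, against 91.3 and 71.9 CPM in WT liver. In the remaining lists, memory genes were 1 higher and 0 lower of 12 in EomesTG liver and 3 higher and 4 lower of 12 in WT liver. Interferon response genes were 2 higher and 1 lower of 11 and 3 higher and 1 lower of 14, and apoptosis and survival genes 2 higher and 4 lower of 14 and 3 higher and 2 lower of 14.

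Eomes and PD-1 were not higher in high cells. Eomes (ENSMUSG00000032446, chr9:118478212-118486132, plus strand) was at 176 CPM in high cells and 186 CPM in low cells of EomesTG liver, a log2 ratio of -0.09 (-0.22 to 0.05), and at 64.7 and 90.1 CPM in WT liver, a ratio of -0.48 (-0.70 to -0.26), and was called in neither. The transgene's transcript was not separated from that of the endogenous gene. Pdcd1 (ENSMUSG00000026285, chr1:94038305-94052553, minus strand), which encodes PD-1, was at 419.6 and 533 CPM in EomesTG liver, a ratio of -0.35 and not called, and at 12.2 and 38.4 CPM in WT liver, a ratio of -1.66 (-2.16 to -1.19). Of 12 inhibitory receptor and exhaustion genes tested, 0 were higher and 2 lower in EomesTG liver, and 3 were higher and 5 lower in WT liver. Havcr2, the receptor TIM-3, was lower in both, at 16.3 CPM in high cells and 46.8 CPM in low cells of EomesTG liver and at 1 UMI in high cells and 49 UMIs in low cells of WT liver. Lag3 was lower in WT liver (-1.61) and not called in EomesTG liver (-0.39).

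**Figure D5:**
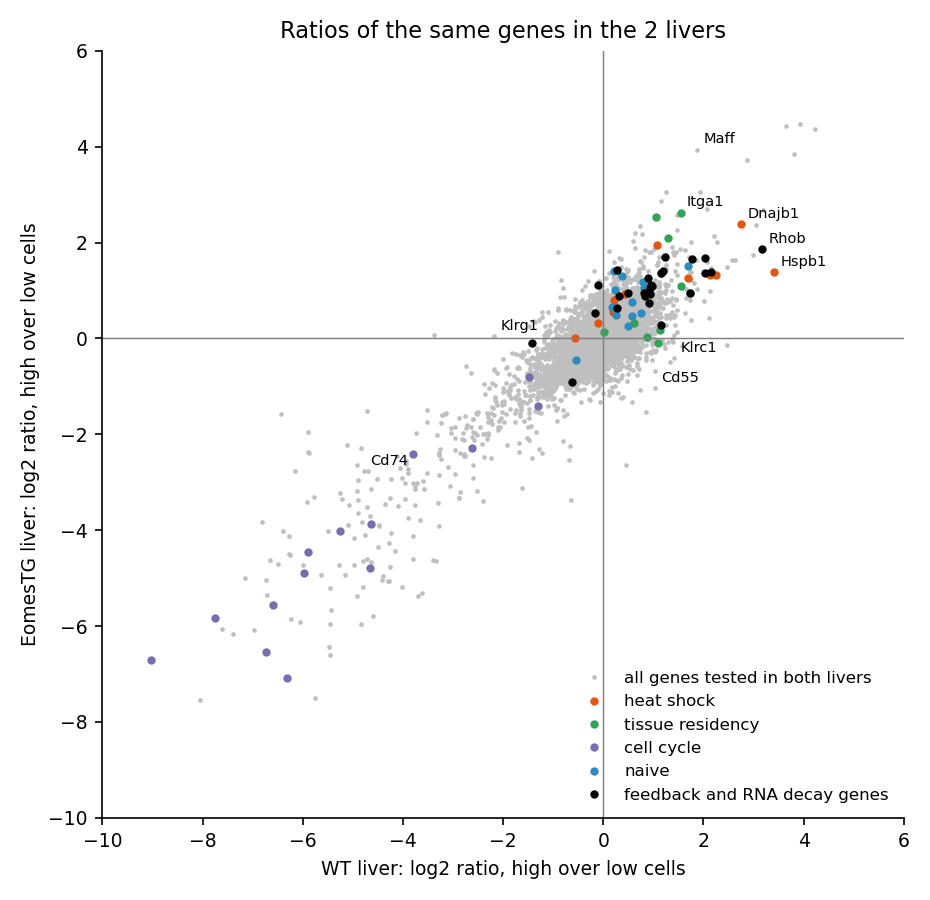
Log2 ratio of high over low cells in EomesTG liver (y axis) against the same ratio in WT liver (x axis), 1 point per gene tested in both livers, with list members in colour and unlabelled grey points at the upper right including the 6 score genes. Most coloured points lie in the upper right or lower left, while Cd55 lies at -1.04 in EomesTG liver and 1.03 in WT liver.

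The high to low ratio differed between the livers for a minority of genes. As a difference of the 2 log2 ratios, EomesTG liver minus WT liver, 464 of 8589 genes (5.4%) were past 1.5-fold on the positive side and 259 (3.02%) on the negative side, both with 1 library on each side and no test. On the positive side the leading genes were ones whose low-cell excess was smaller in EomesTG liver. Klrg1 had log2 ratios of 0.04 in EomesTG liver and -2.18 in WT liver, a difference of 2.21 (1.40 to 3.03), and Gzmk -0.73 and -2.11, a difference of 1.38. Cd74, the MHC class II invariant chain, had -2.77 and -4.77, Uhrf1, a factor of DNA methylation in S phase, -2.76 and -6.15, and Nrn1, neuritin, -1.57 and -6.44. Pdcd1 had a difference of 1.30 (0.83 to 1.77), and Eomes had 0.39 (0.13 to 0.65) and was not past the fold. On the negative side Hspb1 had 1.38 and 3.42, and Klrc1, the NKG2A receptor chain, had -0.42 and 1.42. Cd55, a complement regulator, had -1.04 in EomesTG liver and 1.03 in WT liver. Ccl3 and the unnamed gene model AC163354.1 completed the 5 leading genes of this side.

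Between genotypes, high cells differed in most inhibitory receptor, heat shock and naive genes and in few immediate early genes. Both sets were chosen for a high immediate-early score, so likeness in immediate early genes may come from that choice. The sets also differed in make-up, with naive-leaning cells at 20.1% of EomesTG and 49.1% of WT high cells. The part of either in these counts was not tested. Of 8283 genes tested between EomesTG high cells and WT high cells, 1046 were higher (12.6%) and 378 lower (4.56%) in EomesTG, with a median log2 ratio of 0.13. Of the 14 immediate early transcription factors 2 were higher and 1 lower, and of the 26 feedback genes 4 were higher and 1 lower. Nr4a2 was at 564 CPM in EomesTG high cells and 157 CPM in WT high cells, and Klf2 at 1861 and 3658 CPM. Inhibitory receptor genes were 11 higher and 0 lower of 12, heat shock genes 10 and 0 of 12, effector genes 8 and 4 of 16, residency genes 6 and 1 of 12, and naive genes 0 higher and 11 lower of 14. Pdcd1 was at 419.6 CPM in EomesTG high cells and 12.2 CPM in WT high cells, a log2 ratio of 5.11 (4.67 to 5.58), and Eomes at 176 and 64.7 CPM, a ratio of 1.44 (1.22 to 1.66). Low cells differed in the same lists, with 13.2% of 9374 genes higher and 7.62% lower in EomesTG. There heat shock genes were 7 higher and 0 lower of 12, naive genes 0 and 13 of 14 and inhibitory receptor genes 11 and 0 of 12, and Pdcd1 was at 533 CPM in EomesTG and 38.4 CPM in WT low cells.

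The 5 genes leading in each direction between EomesTG and WT high cells were of mixed kinds. Adgrg1, the receptor GPR56 of cytotoxic lymphocytes, was at 69.0 CPM in EomesTG high cells and 0.565 CPM in WT high cells. Lim2 and Prss2, a lens membrane protein and a trypsinogen, were at 45.1 and 39.7 CPM in EomesTG high cells and at 0.283 CPM each in WT high cells, which is 1 UMI. Calcb, a calcitonin gene related peptide, was at 21.6 CPM in EomesTG high cells and had 0 UMIs in WT high cells, at least 25.5-fold higher. Lower in EomesTG were Dapl1, a gene of naive CD8 T cells, at 6.62 CPM against 89.0 CPM in WT high cells, and S1pr5, an egress receptor, at 2.04 against 22.0 CPM. Gzmm, a granzyme of innate-like lymphocytes, was at 7.13 CPM in EomesTG and 48.0 CPM in WT high cells. Tmem176b was at 2.04 and 26.8 CPM, and Igfbp7, a secreted protein also made by endothelium, at 0.255 and 15.0 CPM. Among WT high cells Igfbp7 was at 28.7 CPM in naive-leaning cells and at 0 CPM in effector-leaning cells. Endothelial genes summed to 106 and 22.7 CPM in the same order. The part of endothelial RNA in the Igfbp7 value was not tested.

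The same split of spleen cells called fewer genes. The highest 25% of spleen cells began at 0.168% in EomesTG spleen and 0.0829% in WT spleen, below the median of either liver, so it is not the same range of the score. Of 8997 genes in EomesTG spleen 194 were higher (2.16%) and 278 lower (3.09%), and of 9096 in WT spleen 275 were higher (3.02%) and 477 lower (5.24%). Immediate early transcription factors were 7 higher and 0 lower of 14 in each spleen, and feedback genes 12 and 0 of 23 in EomesTG spleen and 10 and 0 of 23 in WT spleen. Heat shock genes were 4 higher and 0 lower of 11 in EomesTG spleen and 0 higher and 2 lower of 9 in WT spleen. Dnajb1 was at 236 CPM in high cells and 106 CPM in low cells of EomesTG spleen, and at 75.2 and 63.5 CPM, not called, in WT spleen. Cell cycle genes were 0 higher and 12 lower of 14 in EomesTG spleen and 0 and 13 of 14 in WT spleen, and effector genes 0 and 6 of 15 and 0 and 7 of 16. Naive genes were 0 and 0 of 14 in EomesTG spleen and 2 and 0 of 14 in WT spleen. Residency genes were 2 higher and 1 lower of 5 in EomesTG spleen and 3 and 0 of 8 in WT spleen. Of the leading genes of the liver, Klrb1c and Fcer1g were also higher in WT spleen, where Klrb1c was at 7.77 CPM in high cells and 1.53 CPM in low cells and Fcer1g at 28.3 and 11.0 CPM, and both had too few UMIs in EomesTG spleen. Whether the splits differ between organs was not tested.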

How the data were processed

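CD8 T cells of 4 RNA libraries and the TCR libraries of the 2 livers were used. Per the submitters' processing notes the authors used Cell Ranger with mm10, and the matrix headers give software version 3.1.0 and format version 2. The authors deposited raw UMI counts of 31053 genes per cell barcode, without normalization, and counts of UMIs and reads per receptor contig. Total UMIs per library ranged from 19137483 to 28760172. Barcodes with at least 500 UMIs, 300 genes and under 10% mitochondrial UMIs were kept, 18732 of 19103. No doublet caller was run here.

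Cells were ranked within a library by the share of their UMIs in 6 genes, and UMIs were summed over the highest and the lowest 25%. Ratios of CPM carry exact conditional binomial intervals, sums exact Poisson intervals and shares exact Clopper-Pearson intervals, all at 95% and for counting error only. Differences of log2 ratios use Wald intervals after adding 0.5 to each count. Against 0 UMIs the fold was set at 3 counts over the cells compared and given as a lower bound. No p-value was computed, since each group is 1 library. Ranked by the bound of the interval that lies closer to equality, 10 genes each way were named (5 each way between genotypes), without antigen receptor, mitochondrial, ribosomal protein, sex-linked and Gm or Rik models, then up to 4 called members of a list each way, and Eomes and Pdcd1. Members of a list named as not called were picked after their values were seen. The members and the 24 gene lists, 264 genes in all, were chosen with earlier results of these data known. The ratio and call code was tested on simulated data. In all 12 alternatives were planned and 3 were added after seeing the data. The software was scipy 1.17.1, numpy 2.4.6, pandas 2.3.3 and matplotlib 3.10.9 under Python 3.11.15.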

Additional observations from a re-analysis of the deposited data

Results flagged for a closer look

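Cd55, which encodes a complement regulator, went in opposite directions in the livers. It was at 34.6 CPM in high cells and 71.1 CPM in low cells of EomesTG liver, a log2 ratio of -1.04 (-1.33 to -0.76), and at 40.1 and 19.6 CPM in WT liver, a ratio of 1.03 (0.68 to 1.39). Each direction rests on 1 library, so the difference between the genotypes was not tested.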

How the results depend on the processing

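Each genotype and organ was 1 library, so no replicate was left out. No paired analysis was possible because the labels give no replicate numbers and each group is 1 library. In the following values EomesTG liver comes before WT liver. Genes higher in high cells numbered 705 and 714, and 340 and 254 with cells thinned to 2000 UMIs, 374 and 369 without Jun and Junb in the score, 301 and 303 at a minimum of 200 UMIs, and 433 and 316 without cycling cells. Counting each clone once gave 462 in EomesTG liver, and in WT liver matched depth gave 456 and cells with TRB and no UMI of other cell types 329. Genes lower in high cells numbered 1027 and 1310, and 445 and 549 thinned, 590 and 813 at 200 UMIs, and 265 and 273 without cycling cells. In EomesTG liver each clone once gave 567 and the score without Jun and Junb 620, and in WT liver TRB cells gave 566. The score without Jun and Junb compared 1131 high with 1766 low cells of EomesTG liver.

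The log2 ratio of the naive sum, 0.82 and 0.53, stayed positive in every alternative run. It was 0.64 and 0.45 thinned, 1.23 and 0.59 in TRB cells, 0.28 and 0.35 with each clone once, 0.20 and 0.36 in naive-leaning cells, 0.72 and 0.48 in effector-leaning cells, 0.37 and 0.16 without cycling cells, 1.35 at matched depth in EomesTG liver and 0.90 between the highest and lowest 10% in WT liver. The effector sum, -0.093 and 0.057, had no stable direction. It was -0.25 and -0.25 thinned, -0.58 and -0.67 at matched depth, -0.13 and 0.095 between the highest and lowest 10%, -0.17 and -0.33 in TRB cells, 0.093 and 0.45 with each clone once, and -0.33 and -1.05 without Jun and Junb. It was 0.94 and 0.92 in naive-leaning cells, 0.083 and 0.10 in effector-leaning cells, -0.38 and -0.36 without cycling cells, -0.12 and 0.013 without barcodes of other cell types, and -0.078 in EomesTG liver with the score genes out of the UMI total. Ccl5 weighed heavily in this sum. In naive-leaning cells it was at 3399 of 4582 CPM in high cells and 1165 of 2388 CPM in low cells of EomesTG liver. In WT liver it was at 3829 of 5066 CPM and 1560 of 2678 CPM in the same order. The median effector gene there had log2 ratios of -0.06 and 0.41. The part of Ccl5 in the other values and the cause of these changes were not tested.

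The share in expanded clones was lower in high cells in all alternatives run, by -16.2 and -15.3 percentage points in the comparison as reported. It was -29.0 and -22.3 at matched depth, and, in WT liver, -31.9 between the highest and lowest 10%, -20.4 in TRB cells, -24.6 without Jun and Junb and -9.25 without cycling cells. With each clone once it was -4.86 and -2.05, as a share of clones and not of cells. The log2 ratio of the score of EomesTG over WT liver, -0.21, was -0.30 thinned, -0.34 in TRB cells, -0.10 with each clone once, -0.57 without Jun and Junb, -0.15 in naive-leaning cells and -0.29 without cycling cells. Of 1070 values of 55 named genes under the alternatives, 1003 kept their call as higher, lower or not called. The direction of values not called in both settings was not compared. A call was lost in the same direction in 39, gained in the same direction in 18 and gained in the other direction in 2. In 8 a called gene reversed its sign. Reversed were Ahr (-0.52) and Tyrobp (-0.89) in naive-leaning cells of WT liver and, without Jun and Junb, Cxcr6 (-0.057), Gcnt2 (-0.051) and Il12rb2 (-0.026) in WT liver and Dnaja1 (-0.22), Hsp90aa1 (-0.075) and Hspe1 (-0.12) in EomesTG liver.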

Other observations

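Without cycling cells, an alternative added after seeing the data, low cells of EomesTG liver were led by other genes. Penk, the enkephalin precursor, was at 1.67 CPM in high cells and 16.0 CPM in low cells, Morc1 had a log2 ratio of -2.63, and Tox2, a relative of the exhaustion factor Tox, had -1.48. Ccl3 was at 488 CPM in high cells and 1085 CPM in low cells of EomesTG liver. In WT liver Cd74 stayed lower in high cells without cycling cells, at 8.02 CPM in high cells and 216 CPM in low cells. Among survival genes of all cells, Bcl2, which protects mitochondria from apoptosis, was at 541 CPM in high cells and 387 CPM in low cells of EomesTG liver and at 277 and 112 CPM in WT liver, and passed the fold only in WT liver.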
